A study of Rattus norvegicus with 8 samples.

Results

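The genes described here are 6 neurotransmitter receptors and 1 G-protein effector of the rat medial prefrontal cortex (mPFC). They are the GABA-A receptor subunits Gabra5 and Gabrq, the GABA-B receptor subunit Gabbr2, the metabotropic glutamate receptor Grm5, the alpha-2C adrenoceptor Adra2c, the cannabinoid receptor Cnr1 and the adenylyl cyclase Adcy5. Each is 1 named probe among the 450 probes that the authors' deposited tables list as changed, out of 15207 probes on the array. Any other probe of these genes is not named in the sources used here, so each value is that of 1 probe. Of the 10 genes with more than 1 listed probe, 2 were listed in both directions. The tables took a probe when its mean PNFLX log2 value lay at least 0.4 from the CONTROL median and its unadjusted p was at most 0.05, so the difference between the groups chose these genes. It is given here as a description, with no test.

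Whole mPFC of rats aged 6 months was profiled on 1-colour Agilent arrays. The PNFLX group (4 arrays) was given fluoxetine, an antidepressant that blocks serotonin reuptake, at 10 mg/kg as pups from postnatal day 2 to 21, and the CONTROL group (4 arrays) a 5% sucrose vehicle over the same days. Sex, litter and strain were not stated in the labels used here. Nothing in the labels says that each array had its own animal, so any spread given is between arrays and may be technical. The free-text descriptions of CONTROL 2, 3 and 4 mention fluoxetine, while their titles and source names call them control, and the titles were followed. PNFLX 2 and CONTROL 1 deviated from their groups in like ways over all probes, so the differences are also given without them. In this bulk tissue, fewer cells of a type and less RNA per cell cannot be told apart.

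GABA acts through chloride channels built from GABA-A subunits, which inhibit within milliseconds, and through the slower G-protein coupled GABA-B receptor. Metabotropic glutamate receptors, alpha-2 adrenoceptors and the CB1 cannabinoid receptor likewise signal through G proteins. GABA-B, alpha-2C and CB1 receptors couple to inhibitory G proteins that lower the activity of adenylyl cyclases such as Adcy5, whereas Grm5 couples to the Gq branch and phospholipase C. In the prefrontal cortex these receptors set inhibitory tone and the release of transmitter from terminals.

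Of the 7 genes, 5 were listed as lower (Gabra5, Gabrq, Gabbr2, Grm5 and Adra2c) and 2 as higher (Cnr1 and Adcy5). For 4 of them (Gabrq, Grm5, Adra2c and Adcy5) the 4 PNFLX and the 4 CONTROL values did not overlap. Over all probes 2.32% had their groups apart, and 2.96% met the listing criteria (1.48% as higher and 1.48% as lower), which all 7 met by their choice. With limma and Benjamini-Hochberg adjustment over all 15207 probes, 0 of the 7 passed 0.05, where 0.118% of all probes passed. At an unadjusted limma p of at most 0.05 all 7 passed, where 2.58% of all probes did. With array weights in limma 2 of the 7 passed (Gabrq and Grm5), where 0.986% of all probes did. The weights, estimated from the same data, were 0.13 for CONTROL 1 and 0.17 for PNFLX 2. On the other arrays they ran from 0.56 (PNFLX 1) to 3.26 (PNFLX 4). Since the same contrast chose the genes, nothing is read from these counts. The authors' deposited table gave p-values from 0.00328 (Adcy5) to 0.0436 (Cnr1), and the largest p of any listed probe was 0.0498.

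**Figure D1:**
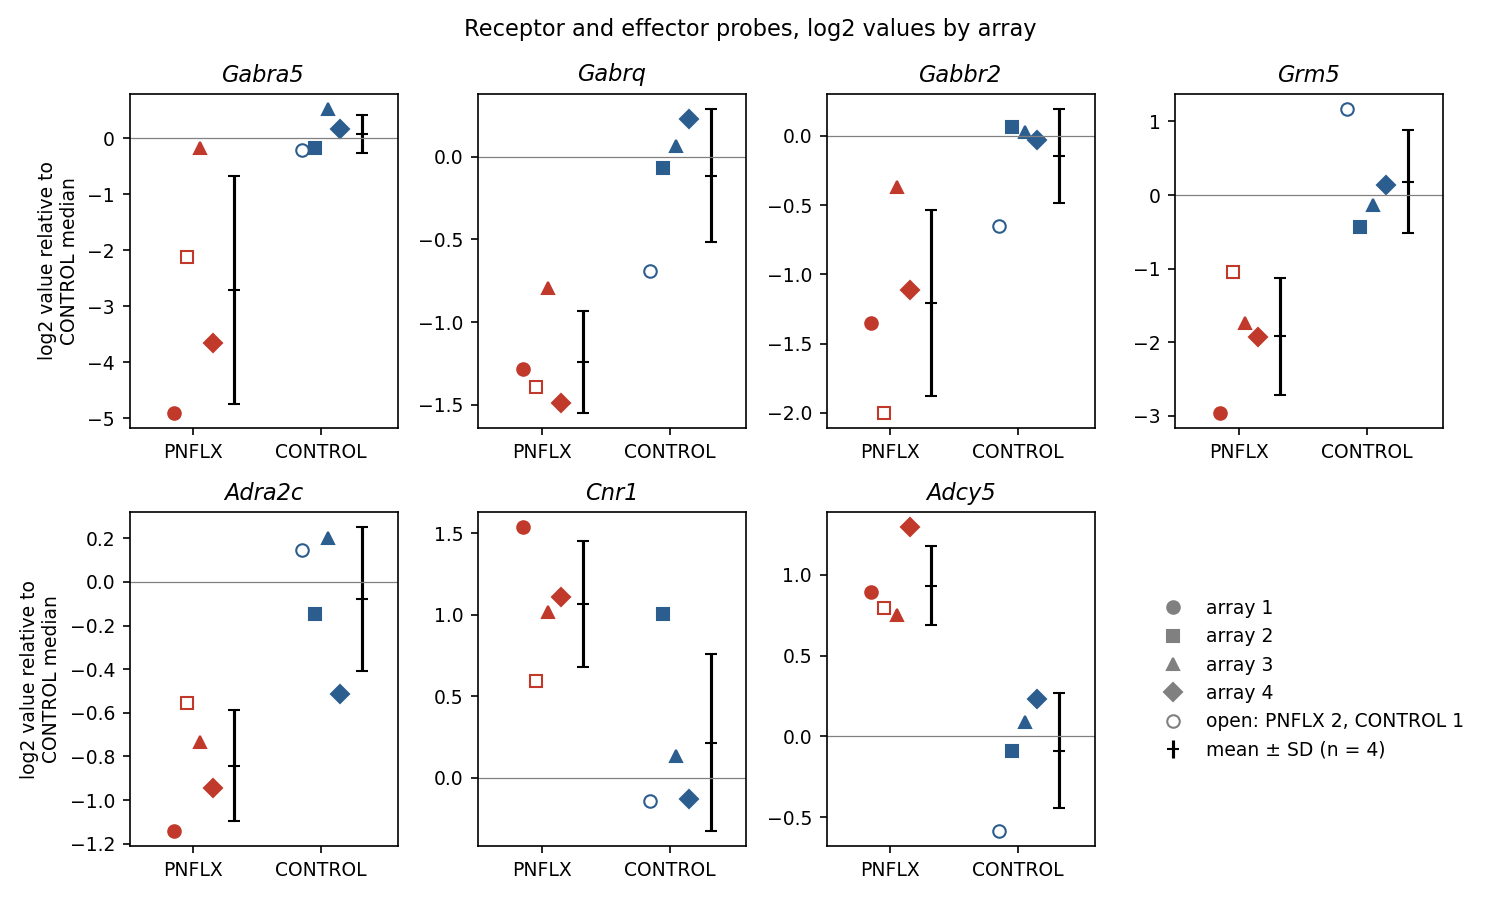
Log2 value of each of the 7 probes relative to the CONTROL median (vertical axis), with 1 point per array, PNFLX in red and CONTROL in blue, and bars for the mean ± SD of 4 arrays. Gabrq, Grm5, Adra2c and Adcy5 have separate groups, while 1 PNFLX array overlaps the CONTROL range for each of Gabra5, Gabbr2 and Cnr1.

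Gabra5 encodes the alpha-5 subunit of GABA-A receptors, known for tonic, extrasynaptic inhibition in hippocampus and cortex, and maps to 1q22 in the authors' table. Gabrq encodes the theta subunit, known in rodents from hypothalamus and monoaminergic brainstem nuclei, and maps to Xq37. As these are the chloride channel subunits of the set and both were listed as lower, the sequence around the start of each gene is shown beside that of Grm5, the G-protein coupled receptor with the largest difference. The sequences are those of RefSeq (build GRCr8, from 250 bases before the start to 50 after it), read 5′ to 3′ on the strand of the gene. Capitals mark the GC box, GGGCGG, on either strand.
Gabra5, chr1:117516557-117516856, minus strand: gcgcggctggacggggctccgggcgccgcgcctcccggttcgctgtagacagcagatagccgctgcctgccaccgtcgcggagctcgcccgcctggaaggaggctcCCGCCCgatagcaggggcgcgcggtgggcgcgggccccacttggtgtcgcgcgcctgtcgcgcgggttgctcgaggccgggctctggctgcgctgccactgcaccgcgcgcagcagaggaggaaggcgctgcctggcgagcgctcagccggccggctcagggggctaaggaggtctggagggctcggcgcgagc
Gabrq, chrX:155738186-155738485, plus strand: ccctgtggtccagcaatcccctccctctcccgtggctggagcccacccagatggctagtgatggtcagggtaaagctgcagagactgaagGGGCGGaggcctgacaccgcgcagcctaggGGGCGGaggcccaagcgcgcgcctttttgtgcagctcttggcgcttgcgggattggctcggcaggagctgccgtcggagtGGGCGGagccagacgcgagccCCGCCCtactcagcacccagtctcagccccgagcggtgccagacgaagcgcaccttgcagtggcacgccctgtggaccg
Grm5, chr1:150733503-150733802, plus strand: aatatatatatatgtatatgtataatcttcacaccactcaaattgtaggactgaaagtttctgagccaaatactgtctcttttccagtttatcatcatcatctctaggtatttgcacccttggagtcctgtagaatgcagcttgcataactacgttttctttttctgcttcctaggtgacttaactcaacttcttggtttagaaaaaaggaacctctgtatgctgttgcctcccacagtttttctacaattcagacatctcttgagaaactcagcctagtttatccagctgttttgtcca
The windows differ widely in base composition. The Gabra5 window was 76.3% G and C with 42 CpG dinucleotides, that of Gabrq 68.3% with 23, and that of Grm5 37.3% with 1. Over all 33469 promoters of the table the median was 51.7% and 7 CpG, and 13.6% had at most 1 CpG. The table matched 6 of the 7 genes (not Cnr1), and the windows of the other matched genes, Gabbr2, Adra2c and Adcy5, were 78.7%, 79.0% and 70.7% G and C. A GC box stood in 5 of the 6 windows (all but that of Grm5) and in 33.1% of all promoters. The core of the cAMP response element, TGACG on either strand, stood in 1 of the 6 (Gabbr2) and in 21.2% of all promoters, and the full element TGACGTCA, which holds that core, in 0 of the 6 and in 1.83% of all. These matches are a description of letters, and the arrays hold no measure of binding at these windows.

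Gabra5 had the lowest mean PNFLX value of the 7 genes and the widest PNFLX spread. Its log2 values were -4.90, -2.13, -0.17 and -3.65 in PNFLX 1 to 4, against -0.20, -0.17, 0.52 and 0.17 in CONTROL 1 to 4. PNFLX 3 lay within the CONTROL range, and the other 3 PNFLX arrays lay below it. The mean difference, PNFLX minus CONTROL, was -2.79 ± 0.94 (log2, SE, n = 4 per group), and it was -3.64 without PNFLX 3 and -2.06 without PNFLX 1. The background-subtracted signal was 2.97, 33.8, 98.1 and 8.57 in PNFLX 1 to 4, against 108, 87.7, 141 and 81.6 in CONTROL 1 to 4. The signal of 2.97 in PNFLX 1 is the lowest listed on that array and is shared by 57 of the 450 listed probes, while on each of the other 7 arrays 1 listed probe held the lowest signal. The PNFLX 1 value of Gabra5 therefore marks a floor and gives no level.

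Gabrq showed a smaller and more even difference. The log2 values were -1.28, -1.39, -0.79 and -1.49 in PNFLX 1 to 4, against -0.69, -0.07, 0.07 and 0.23 in CONTROL 1 to 4. All 4 PNFLX values lay below all 4 CONTROL values, with a gap of 0.11 between PNFLX 3 and CONTROL 1. The mean difference was -1.12 ± 0.31 (log2, SE, n = 4 per group), which is 2.18-fold on the scale of the deposited values and 1.89-fold in the geometric mean of the unscaled signal, higher in CONTROL. In signal, PNFLX arrays had 115, 177, 200 and 120, against 242, 296, 326 and 267 in CONTROL arrays, and the groups were apart on this scale too.

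Gabbr2 encodes the subunit of the GABA-B receptor that couples to the G protein and carries its partner, which binds GABA, to the cell surface. It maps to 5q22. The log2 values were -1.35, -2.0, -0.37 and -1.11 in PNFLX 1 to 4, against -0.65, 0.07, 0.03 and -0.03 in CONTROL 1 to 4. PNFLX 3 was again the highest PNFLX array, and it lay above CONTROL 1, the lowest CONTROL array. The mean difference was -1.06 ± 0.39 (log2, SE, n = 4 per group), and it ranged from -1.34 without PNFLX 3 to -0.80 without PNFLX 2. The groups were apart once CONTROL 1 or PNFLX 3 was left out. The signals were 2829, 3003, 6947 and 4049 in PNFLX 1 to 4, against 6448, 8414, 8232 and 5781 in CONTROL 1 to 4, at least 330 times the lowest listed signal of each PNFLX array.

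Grm5 encodes mGlu5, a postsynaptic receptor held at synapses by Homer proteins, and maps to 1q32. The log2 values were -2.96, -1.04, -1.74 and -1.93 in PNFLX 1 to 4, against 1.17, -0.43, -0.13 and 0.13 in CONTROL 1 to 4. The groups were apart by 0.61, the widest gap of the 7 genes. The mean difference was -2.10 ± 0.51 (log2, SE, n = 4 per group), which is 4.29-fold on the scale of the deposited values and 3.73-fold in the geometric mean of the unscaled signal, higher in CONTROL. The signals were 9.07, 56.7, 26.2 and 22.3 in PNFLX 1 to 4, against 221, 57.9, 71.5 and 63.0 in CONTROL 1 to 4. In signal the groups came close, since PNFLX 2 (56.7) stood just below CONTROL 2 (57.9). Both PNFLX 2 and CONTROL 1 were the highest array of their group. The lowest PNFLX signal was 3.05 times the lowest listed on its array, so the size of the difference depends on the background subtraction.

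Adra2c encodes the alpha-2C adrenoceptor, an inhibitory receptor for noradrenaline, and maps to 14q21. The log2 values were -1.14, -0.55, -0.73 and -0.94 in PNFLX 1 to 4, against 0.15, -0.15, 0.20 and -0.51 in CONTROL 1 to 4. The groups were apart by 0.04, the narrowest separation among the 4 genes with groups apart. The mean difference was -0.77 ± 0.28 (log2, SE, n = 4 per group). In signal the groups overlapped, with 247, 617, 407 and 343 in PNFLX 1 to 4, against 846, 547, 699 and 312 in CONTROL 1 to 4. On the unscaled log2 signal the difference of Adra2c was -0.56.

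Cnr1 encodes the presynaptic CB1 receptor, which lowers transmitter release, and maps to 5q21. It was the receptor of the set listed as higher. The log2 values were 1.53, 0.59, 1.02 and 1.11 in PNFLX 1 to 4, against -0.14, 1.01, 0.13 and -0.13 in CONTROL 1 to 4. CONTROL 2 lay within the PNFLX range, and PNFLX 2 lay within the CONTROL range. The mean difference was 0.85 ± 0.36 (log2, SE, n = 4 per group), or 1.80-fold on the scale of the deposited values, and it was 1.11 without CONTROL 2. In signal the groups of Cnr1 did not overlap, with 982, 850, 852 and 886 in PNFLX 1 to 4, against 430, 757, 414 and 253 in CONTROL 1 to 4. The 4 PNFLX signals of Cnr1 lay close together at 893 ± 62.1, against 463 ± 211 in CONTROL (SD, n = 4 each).

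Adcy5 encodes adenylyl cyclase type V, which makes cAMP, is held down by inhibitory G proteins and is most abundant in striatum. It maps to 11q22. The log2 values were 0.90, 0.80, 0.75 and 1.29 in PNFLX 1 to 4, against -0.59, -0.09, 0.09 and 0.23 in CONTROL 1 to 4. The groups were apart by 0.52. The mean difference was 1.02 ± 0.28 (log2, SE, n = 4 per group), or 2.03-fold on the scale of the deposited values. The signals of Adcy5 were 1410, 2185, 1585 and 2250 in PNFLX 1 to 4, against 708, 792, 898 and 727 in CONTROL 1 to 4, again apart. Of the 10 striatal gene symbols fixed as markers of neighbouring tissue (Drd1 under 2 of them), Adcy5 was the 1 named in the authors' tables. The others are not named probes and were not analysed here, so a share of striatal tissue in the samples was not tested.

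**Figure D2:**
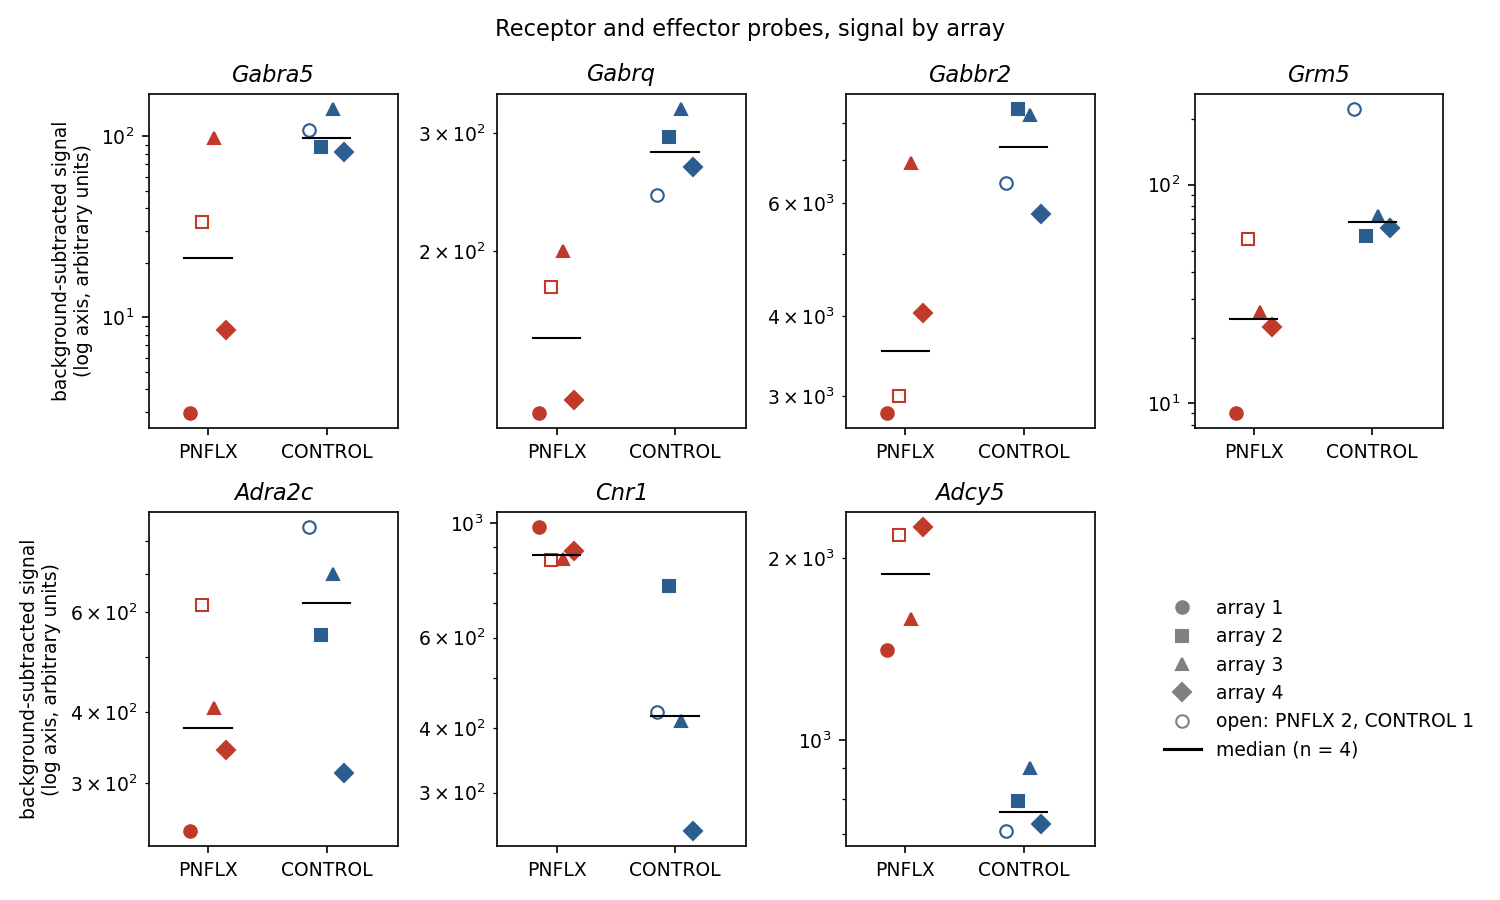
Background-subtracted signal of each probe (vertical log axis, arbitrary units), with 1 point per array, PNFLX in red and CONTROL in blue, and a line at the median of 4 arrays. Adcy5, Cnr1, Gabrq and Grm5 have separate groups in signal, while Adra2c, Gabbr2 and Gabra5 overlap. Without array scaling 5.65% of all probes had separate groups.

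The GABA-A subunits and the G-protein coupled receptors did not form uniform classes. The median difference was -1.96 (log2) over the 2 GABA-A subunits and -0.91 over the 4 G-protein coupled receptors. Within the GABA-A pair the values were -2.79 and -1.12, and within the G-protein coupled receptors they ran from -2.10 (Grm5) to 0.85 (Cnr1), so the range inside each class exceeded the distance between the class medians. The per-array median of the 2 GABA-A probes was -3.09, -1.76, -0.48 and -2.57 in PNFLX 1 to 4, against -0.45, -0.12, 0.29 and 0.20 in CONTROL 1 to 4, with the floor value of Gabra5 entering that of PNFLX 1. That of the 4 G-protein coupled receptor probes was -1.25, -0.80, -0.55 and -1.03 in PNFLX 1 to 4, against 0.00, -0.04, 0.08 and -0.08 in CONTROL 1 to 4. In both classes PNFLX 3 lay nearest to the CONTROL arrays. With 2 and 4 genes chosen on this contrast, the classes were not tested against each other.

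The spread between arrays varied from gene to gene within both classes. For Gabra5 the SD was 2.04 in PNFLX and 0.34 in CONTROL (log2). The PNFLX figure includes the floor value of PNFLX 1, and without that array it was 1.74 over 3 arrays. For Gabbr2 it was 0.67 in PNFLX and 0.34 in CONTROL, and for Grm5 0.79 in PNFLX and 0.69 in CONTROL. The other 4 genes had the smaller SD in PNFLX: Gabrq with 0.31 in PNFLX and 0.40 in CONTROL, Adra2c with 0.25 in PNFLX and 0.33 in CONTROL, Cnr1 with 0.39 in PNFLX and 0.54 in CONTROL, and Adcy5 with 0.25 in PNFLX and 0.36 in CONTROL. Among all probes listed as lower, 68.9% had the larger SD in PNFLX, among those listed as higher 26.2%, and among all 15207 probes 46.2%. Cnr1 and Adcy5 thus stood with the greater part of the probes listed as higher, and Gabrq and Adra2c differed from the greater part of those listed as lower. These shares take no account of signal level, and listed probes at the floor of PNFLX 1 enter them.

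**Figure D3:**
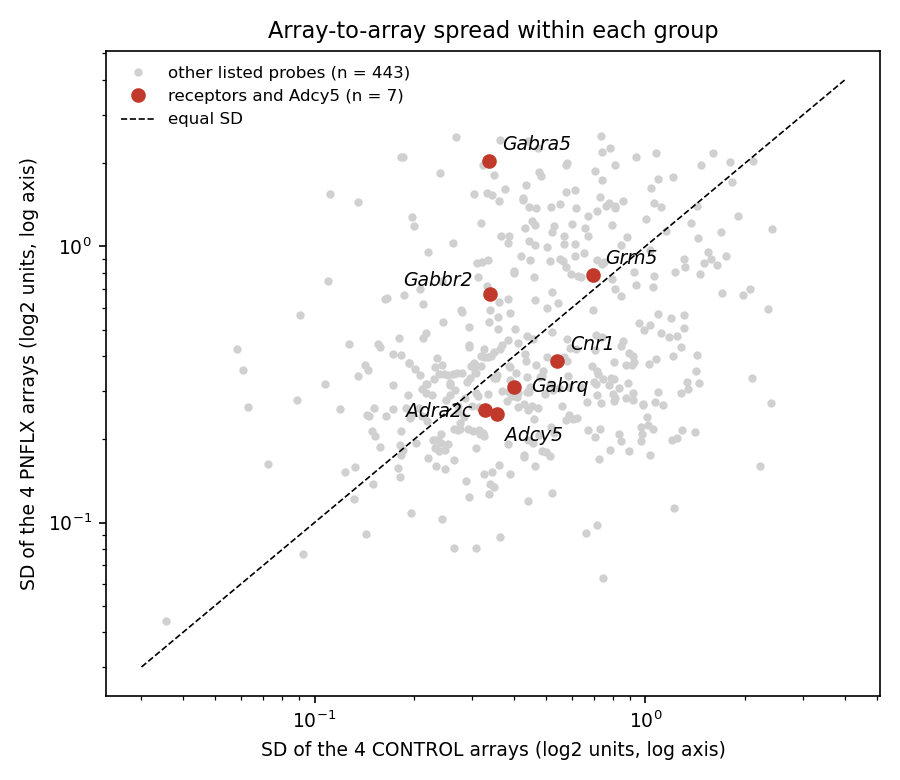
SD of the 4 PNFLX arrays (vertical) against the SD of the 4 CONTROL arrays (horizontal), both in log2 units on log axes, for the 7 genes in red and the 443 other listed probes in grey, with a dashed line at equal SD. Gabra5, Gabbr2 and Grm5 lie above the line and the other 4 genes below it.

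The deviations of CONTROL 1 and PNFLX 2 from their group means correlated at 0.85 across all probes, which are not independent. Among the 450 listed probes, these arrays lay mostly above the other arrays of their group for probes of low signal and below them for probes of high signal. Measured from the mean of the other 3 arrays of the group, the median deviation among the 150 listed probes with the lowest signal was 0.52 (log2) in PNFLX 2 and 0.40 in CONTROL 1, and among the 150 with the highest it was -0.32 in PNFLX 2 and -0.39 in CONTROL 1. On this measure Grm5, a low-signal probe, deviated by 1.17 in PNFLX 2 and 1.31 in CONTROL 1. Gabbr2, of high signal, deviated by -1.05 in PNFLX 2 and -0.67 in CONTROL 1, and Cnr1 by -0.63 in PNFLX 2 and -0.48 in CONTROL 1. Adra2c, also of high signal, went the other way, with 0.39 in PNFLX 2 and 0.30 in CONTROL 1. Gabra5, of low signal, had 0.78 in PNFLX 2 but -0.38 in CONTROL 1. What these arrays contribute to the differences can be read from leaving them out. Without both, the differences (log2) were -3.08 for Gabra5, -1.27 for Gabrq, -0.97 for Gabbr2, -2.07 for Grm5, -0.79 for Adra2c, 0.88 for Cnr1 and 0.90 for Adcy5. In those 6 arrays the groups were apart for 6 of the 7 genes, all but Gabra5, where 12.3% of all probes had their groups apart. PNFLX 2 minus CONTROL 1, 1 array each, was -1.92 for Gabra5, -0.70 for Gabrq, -1.35 for Gabbr2, -2.21 for Grm5, -0.70 for Adra2c, 0.74 for Cnr1 and 1.38 for Adcy5. The signs were thus alike in both subsets, which the choice of the genes on all 8 arrays favours.

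The scaling of the arrays bore on which genes met the listing criteria. The deposited log2 values equal the log2 signal minus 1 constant per array and 1 per probe, and the array constants lay from -0.52 (CONTROL 4) to 0.50 (PNFLX 2), with a mean 0.20 higher in PNFLX. Unscaled differences were therefore 0.20 above the deposited ones for every gene. With quantile normalization 2 of the 7 genes met the listing criteria (Gabra5 and Grm5), where 1.96% of all probes did, and with array medians set equal 3 (Gabra5, Grm5 and Adra2c), where 2.35% did. With 75th percentiles set equal 1 met them (Grm5), where 2.81% of all probes did, and without array scaling 5 (all but Gabra5 and Adra2c), where 6% did. Under quantile normalization the mean differences of the genes that missed the criteria stayed near the deposited ones. They were -1.31 for Gabrq, -1.21 for Gabbr2, -0.73 for Adra2c, 0.87 for Cnr1 and 1.22 for Adcy5 (log2). The groups of each of these genes overlapped, however. The unadjusted p of the listing criteria was 0.051 for Gabrq, 0.070 for Adcy5, 0.14 for Gabbr2 and Adra2c, and 0.33 for Cnr1. With 75th percentiles set equal, this p ran from 0.075 (Gabra5) to 0.40 (Cnr1) among the genes that missed. Grm5 met the criteria with groups apart in all 13 alternative scalings and subsets of arrays, with differences from -2.39 to -1.64. Over all probes 1.96% to 6% met the criteria in each of these alternatives, and 1.18% to 12.3% had their groups apart. The share of all probes that did both in all 13 was not counted, so Grm5 has no background for that. In the fits that left out 1 array, 2.31% to 4.42% of all probes met the criteria. Gabrq, Adra2c and Adcy5 met the criteria in all 8 of these fits, Gabbr2 and Cnr1 in 2 of the 8 and Gabra5 in 1. The share of all probes that met them in all 8 was not counted. These fits reuse the arrays that chose the genes, so nothing is read from these counts. The sign of each of the 7 differences was the same in all 13, which the choice of the genes on this contrast favours.

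**Figure D4:**
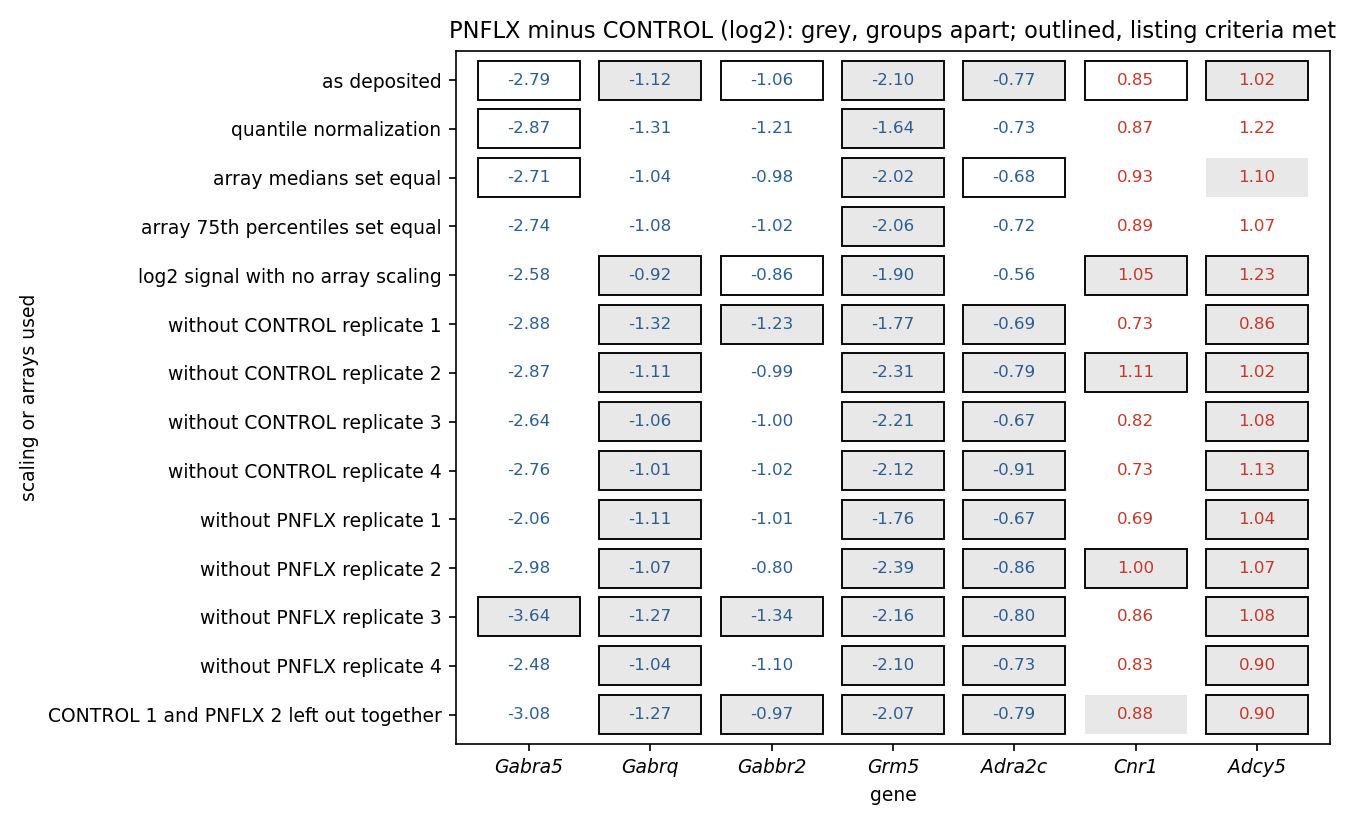
PNFLX minus CONTROL difference (log2, printed in each cell) of the 7 genes (columns) under the deposited scaling and 13 alternatives (rows), blue below 0 and red above it, with grey cells where the groups were apart and outlines where the listing criteria were met. Only the Grm5 column is grey and outlined in every row.

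The genes were next set against the other listed probes by the root mean square (RMS) difference of their 8 log2 values, a measure in which a small number means a like pattern. The closest pair among the 7 was Gabrq and Gabbr2, at 0.31, but the nearest named probe to Gabrq was the serine protease gene Tmprss4, at 0.24. Gabrq was the nearest named probe to Gabbr2, and the next was Gabarapl2 at 0.33, an autophagy-related protein of the GABARAP family. Gabra5 lay 1.55 from Gabrq, and its nearest named probe was Prkag2, a regulatory subunit of AMP-activated kinase, at 0.58. The nearest to Grm5 was Nfya, a subunit of the CCAAT-binding factor NF-Y, at 0.44. For Adra2c it was the kinesin Kif13b at 0.25, for Cnr1 the transcription factor Ets1 at 0.16, and for Adcy5 the interleukin-6 receptor gene Il6ra at 0.23. Cnr1 and Adcy5 lay 0.51 apart. These distances over 8 arrays follow the size of the group difference and the shared arrays, and say nothing of common control.

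The wider signalling lists held a few other named genes. The 14 lists of transmitter receptors, their ligand handling and G-protein signalling hold 233 gene symbols, and a few genes stand under an old and a new symbol. Of these symbols 13 were named in the authors' tables, 4 as higher and 9 as lower. In 5 of the lists no gene was named: GABA synthesis and transport, ionotropic glutamate receptors, glutamate transport, the receptors for serotonin, dopamine, acetylcholine and opioids, and the G protein subunits. Probes outside the tables have no gene name in the sources used here, so nothing is known of the remaining members. Of the 226 symbols other than those of the 7 genes, 2 were named as higher and 4 as lower. Together they are 2.65% of these symbols, beside the 2.96% of all probes that met the listing criteria. Of these named genes 0 passed the adjusted threshold in limma. How many of the 226 have a probe is not known from the sources used here, so the share of symbols and the share of probes cannot be compared.

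Of these 6 genes, those listed as lower were an auxiliary subunit, a kinase subunit and regulators of receptor signalling. Kctd8, an auxiliary subunit of GABA-B receptors, was at -0.76 ± 0.26 (log2, SE, n = 4 per group), with a median signal of only 8.85 in PNFLX and 11.7 in CONTROL. Prkar2b, a regulatory subunit of the cAMP-dependent protein kinase, was at -2.79 ± 0.74 with groups apart. The arrestin Arrb2, which ends receptor signalling, was at -3.06 ± 0.98, and PNFLX 1 was at its floor of 2.97. Its groups overlapped, since CONTROL 4 (-1.66, log2) lay within the PNFLX range. Rgs5, which speeds the shut-off of G proteins and marks pericytes, was at -3.06 ± 0.77. The other named endothelial and pericyte markers were Anpep (-0.66) and Cldn5 (-0.57) as lower and Emcn (2.08) as higher, and their part in the Rgs5 value was not tested.

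The genes listed as higher were Rgs12 and Kcnj6. Rgs12, which acts on inhibitory G proteins, was at 1.05 ± 0.29 (log2, SE, n = 4 per group), with values from 0.79 to 1.72 in PNFLX and from -0.14 to 0.24 in CONTROL. Kcnj6, the potassium channel GIRK2 that opens on GABA-B and other receptors of inhibitory G proteins, was at 0.53 ± 0.21. This SE is that of the limma fit, while the SD of Kcnj6 was 0.044 in PNFLX and 0.036 in CONTROL (log2). Its values were 0.57, 0.56, 0.50 and 0.48 in PNFLX 1 to 4, against -0.03, -0.03, 0.03 and 0.03 in CONTROL 1 to 4, so on this scale the arrays within each group differed by far less than the groups. In unscaled signal the groups of Kcnj6 were also apart, but the ranges within PNFLX (0.72, log2) and CONTROL (0.71) came close to the difference of the means (0.73), with 190, 313, 225 and 216 in PNFLX and 175, 139, 146 and 107 in CONTROL. Receptor and cyclic nucleotide genes outside the lists, chosen after their values were seen, include the somatostatin receptor Sstr3 (-0.54 ± 0.24) and the phosphodiesterase Pde9a (0.53 ± 0.28). They are not the full set. The authors' tables also name the adenosine receptor Adora2b (0.73 ± 0.31) and Akap6 (1.05 ± 0.43) as higher, and the receptor Mas1 (-0.49 ± 0.26) as lower.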

How the data were processed

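Total RNA was labelled with Cy3 and hybridised to a custom rat 8x15k Agilent array, per the labels' protocols. The deposited value table holds log2 values relative to the CONTROL median of each probe. For listed genes the authors' tables repeat these log2 values and add each array's background-subtracted signal intensity and an unadjusted p-value, per the file headers. The software and the scaling are not named in the labels or headers, and no detection flags were used here. Titles number the arrays from 1 to 4, and the authors' tables use the numbers of the source names (1, 2, 4 and 5 for CONTROL, 1, 2, 3 and 5 for PNFLX).

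All 15207 probes were fitted with limma 3.58.1 (lmFit and eBayes) in R 4.3.3, PNFLX minus CONTROL, without covariates, and p-values were adjusted by Benjamini-Hochberg over all probes. The fit was tested on simulated data. Alternatives were other array scalings, blocks, weights, a variance trend, filters, thresholds and leaving out arrays. SEs are those of this fit and SDs are between arrays. In the fit eBayes draws the variance of each probe toward a value common to all probes. An SE can therefore be larger or smaller than the arrays of that probe alone would give. The named genes are the 7 genes, every gene of the signalling lists in the authors' tables, and the named probes nearest to each of the 7. Added to these are named cell-type markers and the genes chosen after their values were seen. The genes and lists were chosen with earlier results of these data known. No 2 arrays held identical values. Signals of different probes are not comparable as RNA levels. The number of arrays limits the precision.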

Additional observations from a re-analysis of the deposited data

Results flagged for a closer look

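Among the 14 groups of 4 arrays formed by the 7 genes, Dixon's criterion marked 1 array as far from its group, where chance alone marks about 0.7. It was Gabbr2 in CONTROL 1, at -0.65 (log2) against -0.03 to 0.07 in CONTROL 2 to 4, with a gap of 0.86 of the range. Without CONTROL 1 the difference of Gabbr2 was -1.23 and its groups were apart.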

How the results depend on the processing

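The differences of the 7 genes and both class medians kept their sign under every alternative run and moved by less than 1 SD between arrays. The choice of the genes on this contrast favours that. Blocks leave these differences unchanged by design. Equal medians, equal 75th percentiles and no array scaling shift every gene by the same amount, so these alternatives could scarcely change a sign. The class medians ranged from -1.07 to -0.71 for the G-protein coupled receptors and from -2.45 to -1.58 for the GABA-A subunits. The counts moved more. Of the 7 genes, 2 met the listing criteria with quantile normalization, 3 with equal medians, 1 with equal 75th percentiles, 5 without array scaling and 4 to 6 with 1 array left out, where 1.96%, 2.35%, 2.81%, 6% and 2.31% to 4.42% of all probes did. Groups were apart for 1, 2, 1 and 4 of the 7 under the same 4 scalings and for 4 to 6 with 1 array left out, where 1.18%, 1.7%, 1.83%, 5.65% and 3.04% to 8.38% of all probes were. These 2 counts were added after seeing the data. Over all probes, the 9 higher and 9 lower calls of limma became 2 and 8 with quantile normalization, 3 and 1 with equal 75th percentiles, 19 and 21 without CONTROL 1 and PNFLX 2, 20 and 23 with these arrays as a block, 69 and 81 with array weights, 5 and 8 without the 25% of probes of lowest variance, 14 and 11 at an adjusted p of 0.1, and 191 and 202 at an unadjusted p of 0.05. A variance trend gave 0 and 0 (323 probes at an unadjusted p of at most 0.05), as did the array number as a replicate block (346 at an unadjusted p of at most 0.05). PNFLX and CONTROL arrays of the same title number deviated with r of -0.21, -0.67, 0.44 and 0.35 across probes. These values cannot tell whether the numbers pair the arrays, since the shared deviation of PNFLX 2 and CONTROL 1 (r of 0.85) bears on them. The source names also number the arrays otherwise, and title number 3 joins their number 4 of CONTROL with their number 3 of PNFLX. The replicate block thus joins arrays of unlike source numbers there. With 1 array left out, 1 to 19 were higher and 0 to 18 lower, with the most higher calls without CONTROL 1, the most lower calls without PNFLX 2, and at most 4 calls in all without CONTROL 2, 3 or 4 or PNFLX 4. Array weights called 2 of the 7 genes, Gabrq (-1.29) and Grm5 (-1.85), where 0.986% of all probes passed. The other fits that kept all probes called 0 of the 7 at an adjusted p of 0.05. The cause was not tested. The limma counts over all probes were not run on unscaled values. Signals are given for listed probes only, and the shares of all probes without array scaling come from adding the array constants back to the deposited values. The signal over background limits Gabra5 and Grm5 most.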
